A study of Mus musculus with 6 samples.

Results

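The RNA-Seq data were searched for 7 genes of 1 signalling system of the skin: the ligand gene *Hgf*, the receptor genes *Met* and *Mst1r*, the protease genes *St14* and *Hgfac*, and the protease inhibitor genes *Spint1* and *Spint2*. Members were matched by Ensembl identifier to GENCODE M21, and all 7 were found among the 26579 genes of the count table. Levels are given as CPM, a gene's count relative to the scaled size of its library (TMM). A gene was tested where 3 or more libraries reached 1 CPM, which held for 15102 genes and for 6 of the 7 members, all but *Hgfac*. The genes were chosen by the difference between the genotypes in these same libraries, so their values in that comparison, and the counts of members called in it, are a description and support nothing, and no p-value is given for a member. The libraries came from dorsal neck skin biopsies of 33-day-old female mice. There were 3 transgenic YAP2-5SA-∆C mice (TG) and 3 wild type littermates (WT). YAP2-5SA-∆C is a mildly active form of the Hippo effector YAP whose expression is directed to Keratin5/14-positive basal keratinocytes, while a biopsy holds all cell types of the skin. The TG mice were sampled at the first visible signs of the phenotype. Whole biopsies were sequenced, and fewer cells of a type and less RNA per cell cannot be told apart.

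HGF is a secreted growth factor made mainly by mesenchymal cells, and its receptor MET is a tyrosine kinase found mainly on epithelial cells. HGF is released as an inactive single chain and must be cut by a serine protease before it can activate MET. MST1R (RON) is the closest relative of MET and binds MSP, the product of *Mst1*, which is activated by the same kind of cut. Matriptase (*St14*), a membrane-anchored serine protease of epithelia that is needed for the skin barrier, and the HGF activator (*Hgfac*), a protease made mainly in the liver, can make these cuts. HAI-1 (*Spint1*) and HAI-2 (*Spint2*) are membrane-bound Kunitz inhibitors of these proteases.

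Promoter windows of 250 bases before to 50 bases after a RefSeq transcript start (GRCm38.p6) were found for 6 of the 7 genes, 8 windows in all. *St14* had none. *Hgf* and *Spint1* are shown because they had the largest differences in each direction among the tested members, and *Met* because it held the other motif match. Bases run 5′ to 3′, and capitals mark a match to the AP-1 letters TGANTCA. All 3 lie on the plus strand. The stretch of *Hgf*, chr5:16553395-16553494, ends at the base before the start, that of *Spint1*, chr2:119237263-119237362, ends just past the start, and that of *Met* is chr6:17463892-17463921.
Hgf: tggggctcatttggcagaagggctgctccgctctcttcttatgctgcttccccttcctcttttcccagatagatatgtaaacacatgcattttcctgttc
Spint1: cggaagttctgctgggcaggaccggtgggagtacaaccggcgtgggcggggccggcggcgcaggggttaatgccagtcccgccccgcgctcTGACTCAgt
Met: tgttgcccggcTGAGTCAcgggccgggcag
The *Spint1* window was rich in G and C (69.7%) and held 28 CpG. Like it, the windows of *Met* (75.7%, 34 CpG) and *Spint2* (69.3%, 26 CpG) were above the median of all 32851 windows, which was 52.7% with 7 CpG. The *Hgf* windows had 51.3% with 7 and 6 CpG, near that median. *Hgfac* had 58.3% with 2 CpG, and the *Mst1r* windows had 59.0% with 8 and 57.0% with 9 CpG. The core letters of the TEAD site, GGAATG on either strand, were in 0 of the 8 windows of these genes and in 14.7% of all windows. AP-1 letters were in 2 of the 8 windows, those of *Spint1* and *Met*, and in 7.81% of all windows. They began 6 bases before the RefSeq start of *Spint1* (TGACTCA), reaching the start base itself, and 54 bases before that of *Met* (TGAGTCA). This *Met* start is 81 bases from the nearest transcript start in GENCODE M21. The match lies inside the span of the gene as placed there. No window of these genes held both motifs, and a match is a description of the letters only.

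In TG skin, the ligand and one of the receptors were higher, *Met* was nearly level, and the matriptase gene and one of its inhibitors were lower. *Hgf* was 1.77-fold and *Mst1r* 1.68-fold of the WT level, *St14* was 0.697-fold and *Spint1* 0.638-fold, and *Met* (0.990-fold) and *Spint2* (1.06-fold) were within the spread of the libraries. The CPM of the 3 TG libraries lay outside those of the 3 WT libraries for 4 of the 6 tested genes, against 33.8% of all tested genes. At an FDR below 0.05, the quasi-likelihood test of edgeR called 2 of the 6, *Hgf* and *St14*, where it called 1.91% of all tested genes, and voom called the same 2, against 1.65%. The likelihood-ratio test of edgeR called 4 of the 6, which also held *Mst1r* and *Spint1*, against 10.4%, and DESeq2 called these same 4, against 10.5%. Since the members were chosen on this contrast, nothing is read from these counts. The quasi-likelihood count was 3 (*Hgf*, *St14* and *Spint1*) without TG2 and 0 without any one of WT1, WT2, WT3, TG1 or TG3. Over all tested genes it was 817 without TG2, 142 without WT1, 83 without TG1 and 0 without WT2, WT3 or TG3. In each of those 6 fits, 4 members had an unadjusted p below 0.05, as did 2726 to 3841 of the 14914 to 14999 genes tested. For the same reason, nothing is read from these member counts either.

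**Figure D1:**
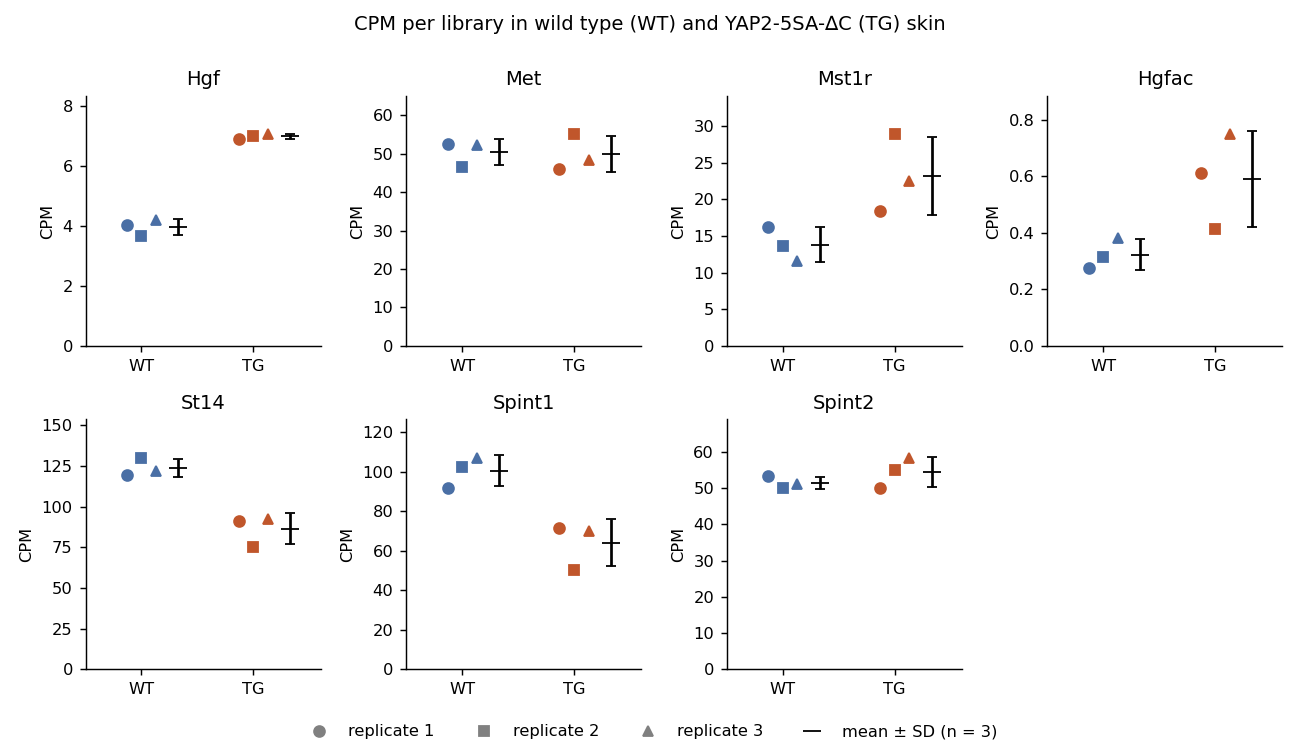
Each panel plots the CPM of 1 gene in the 3 WT and the 3 TG libraries, with the mean and SD (n = 3) beside them, and each y axis starts at 0. For *Hgf*, *Mst1r* and *Hgfac* every TG point is above every WT point, for *St14* and *Spint1* every TG point is below, and *Met* and *Spint2* overlap.

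*Hgf* (ENSMUSG00000028864, GRCm38 chromosome 5 from 16553495 to 16620152, plus strand) had 73, 70 and 44 counts in WT1 to WT3 and 124, 119 and 113 in TG1 to TG3. As CPM these were 4.01, 3.66 and 4.19 in WT and 6.897, 7.001 and 7.052 in TG skin. The TG libraries lay close together, well above the WT libraries. The means were 3.95 ± 0.266 and 6.98 ± 0.0793 CPM (SD, n = 3 each), and the log2 fold change was 0.82 (standard error 0.11). The SD among the TG libraries was below the counting error alone, which was 0.619 to 0.663 CPM per library, so the small SD does not measure how closely the mice resembled each other. Leaving out any one library gave values between 0.77 and 0.87. A gene model without a known product, Gm43489, shares exon sequence with *Hgf* on the same strand and had no row in the table.

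*Met* (ENSMUSG00000009376, chromosome 6 from 17463800 to 17573980, plus strand), the HGF receptor, had 52.5, 46.5 and 52.1 CPM in WT and 46.1, 55.1 and 48.4 CPM in TG libraries. The 2 genotypes overlapped, and TG2 held the highest and TG1 the lowest value of the 6. The means were 50.4 ± 3.38 and 49.9 ± 4.65 CPM, a difference of -0.01 on the log2 scale (standard error 0.09). The sign of this difference changed with the setting, from -0.07 to 0.06 over 14 alternatives.

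*Mst1r* (ENSMUSG00000032584, chromosome 9 from 107906873 to 107920383, plus strand), the MSP receptor gene, had 16.3, 13.6 and 11.6 CPM in WT and 18.4, 28.9 and 22.5 CPM in TG libraries. The lowest TG library, TG1, was close to the highest WT library, WT1. The means were 13.8 ± 2.34 and 23.2 ± 5.31 CPM, and the log2 fold change was 0.74 (standard error 0.19). It was 0.57 (standard error 0.16) without TG2, the lowest value among the fits with 1 library left out, which reached 0.91.

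*St14* (ENSMUSG00000031995, chromosome 9 from 31089402 to 31131853, minus strand) had 2170, 2487 and 1284 counts in WT and 1639, 1280 and 1484 counts in TG libraries. Scaled to CPM, it stood at 119, 130.1 and 122 in WT and at 91.2, 75.3 and 92.6 in TG skin. All TG libraries were below all WT libraries, and TG2 was the lowest. The means were 124 ± 5.63 and 86.4 ± 9.60 CPM, and the log2 fold change was -0.52 (standard error 0.09). Without TG2 it was -0.41 (standard error 0.07). The pseudogene Gm16071 lies within *St14* on the opposite strand and had at most 2 counts in a library.

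*Hgfac* (ENSMUSG00000029102, chromosome 5 from 35041509 to 35048461, plus strand) was barely detected. It had 5, 6 and 4 counts in WT and 11, 7 and 12 counts in TG libraries, 15 against 30 in all. These were 0.275, 0.314 and 0.381 CPM in WT and 0.612, 0.412 and 0.749 CPM in TG skin. The groups did not overlap, but the nearest libraries, WT3 with 4 counts and TG2 with 7, lay within counting error, and this depth gives no usable size for the difference.

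*Spint1* (ENSMUSG00000027315, chromosome 2 from 119237362 to 119249527, plus strand) was the tested member with the largest difference toward lower values in TG skin. Its CPM were 91.9, 102 and 107 in WT and 71.7, 50.4 and 69.9 in TG libraries. TG2 stood below the other 2 TG libraries, and these stood below every WT library. The means were 100.4 ± 7.84 and 64.0 ± 11.8 CPM, and the log2 fold change was -0.65 (standard error 0.14). It was -0.49 (standard error 0.08) without TG2.

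*Spint2* (ENSMUSG00000074227, chromosome 7 from 29256323 to 29281912, minus strand) had 53.3, 49.9 and 51.1 CPM in WT and 50.001, 55.0 and 58.5 CPM in TG libraries. The groups overlapped, and TG1 lay among the WT libraries. The means were 51.4 ± 1.70 and 54.5 ± 4.26 CPM, and the log2 fold change was 0.08 (standard error 0.07), between 0.03 and 0.16 with 1 library left out.

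**Figure D2:**
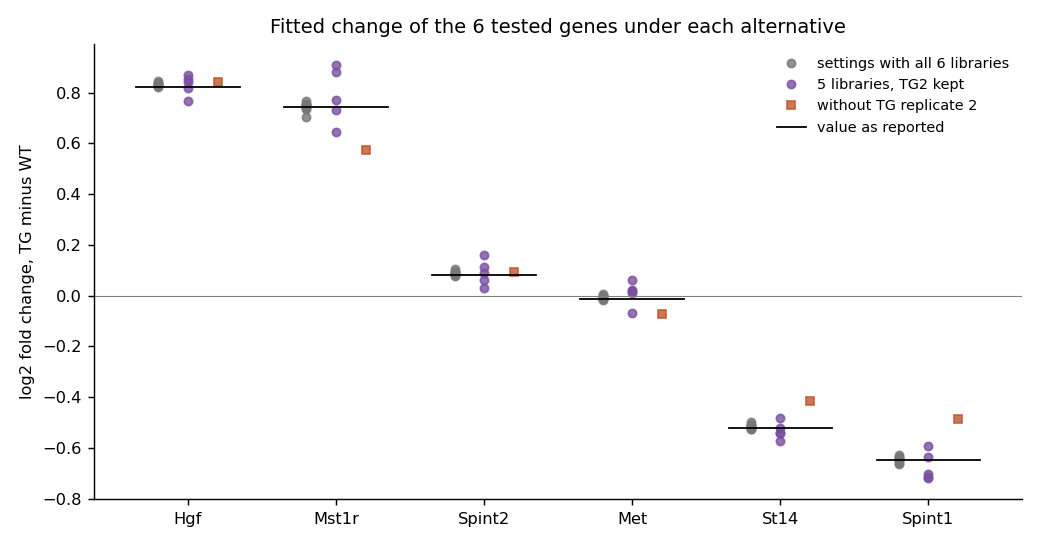
The y axis gives the fitted log2 fold change of TG minus WT for each tested gene, with the reported value as a line, settings with all 6 libraries in grey, fits with 1 library left out in purple and the fit without TG2 as an orange square. The square lies nearer to 0 than the line for *Mst1r*, *St14* and *Spint1*, and *Hgf* stays between 0.77 and 0.87.

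The order of the genes was compared on a per-length scale, as FPKM, here the CPM divided by the kilobases of annotated exon. In WT skin, the inhibitor *Spint1* was the most abundant of the 7, at 36.3 ± 2.83 FPKM (SD, n = 3), and *St14* came next at 16.2 ± 0.737. *Spint2* had 11.3 ± 0.372, *Met* 6.56 ± 0.440 and *Mst1r* 2.76 ± 0.467 FPKM. *Hgf* was far lower, at 0.550 ± 0.0371 FPKM, and *Hgfac* was last at 0.0948 ± 0.0157. No neighbours in this order overlapped over the 3 WT libraries. In TG skin, *Spint1* was still first at 23.1 ± 4.27 FPKM, but *Spint2* (11.96 ± 0.935) and *St14* (11.3 ± 1.26) overlapped, with 10.97 to 12.8 and 9.86 to 12.1 FPKM. *Met* (6.49 ± 0.606), *Mst1r* (4.64 ± 1.06), *Hgf* (0.972 ± 0.0110) and *Hgfac* (0.173 ± 0.0497) followed and did not overlap their neighbours. With the longest transcript as the length in place of all exons, *St14* stood at 34.9 ± 1.59 FPKM in WT skin. It had 24.3 ± 2.70 FPKM in TG skin and lay above *Spint2* in both genotypes. *Spint1* had 43.2 ± 3.38 and 27.6 ± 5.09 FPKM on this length, so the size of its lead over *St14* depended on the length used. *Hgf* then stood at 1.14 ± 0.0768 and 2.01 ± 0.0229 FPKM, still below *Mst1r*.

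**Figure D3:**
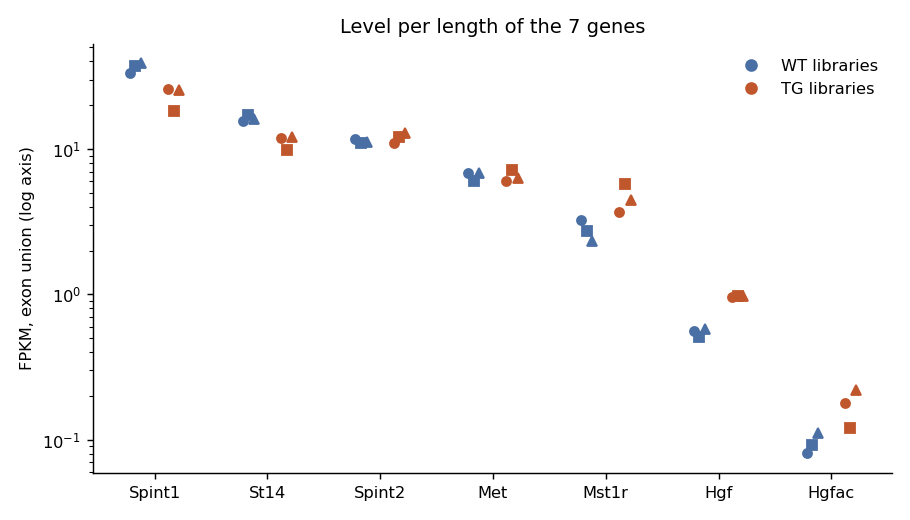
The y axis gives FPKM on a log scale for the 7 genes, ordered by their WT level, with 1 point per library (circle, square and triangle for replicates 1, 2 and 3). In WT skin *St14* lies above *Spint2* and in TG skin the 2 overlap, while *Hgf* and *Hgfac* lie below 1 FPKM in every library on this exon-union scale.

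Ratios taken within a library do not depend on its depth. For the matriptase gene and its inhibitors together, *St14* over the sum of *Spint1* and *Spint2* was 0.348, 0.356 and 0.320 in WT and 0.323, 0.326 and 0.318 in TG libraries, and the groups overlapped. Whether they overlap depends on the gene lengths used. With the longest transcript, an alternative chosen after the data were seen, the ratio was 0.601, 0.618 and 0.556 in WT and 0.555, 0.5495 and 0.543 in TG libraries, all TG values lower. *St14* over *Spint1* overlapped with either length, at 0.448 ± 0.0310 and 0.494 ± 0.0421 (SD, n = 3 each) with all exons. Its means were 0.809 in WT and 0.892 in TG skin with the longest transcript. Between the inhibitors, *Spint1* over *Spint2* was 2.84, 3.37 and 3.46 in WT and 2.36, 1.51 and 1.97 in TG libraries, with every TG value lower. Ligand over receptor was 0.0839 ± 0.00208 for *Hgf* over *Met* in WT and 0.1504 ± 0.0128 in TG skin, without overlap. *Mst1r* over *Met* was 0.422 ± 0.0710 and 0.709 ± 0.0970, also without overlap. These 2 ratios, and those of *St14* and *Spint2* to *Spint1*, change with the gene lengths by 1 factor in all libraries, so which libraries overlap does not. For the MSP gene and its receptor gene, *Mst1* over *Mst1r* was 0.814 ± 0.158 in WT and 0.815 ± 0.0885 in TG skin, with overlapping values.

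**Figure D4:**
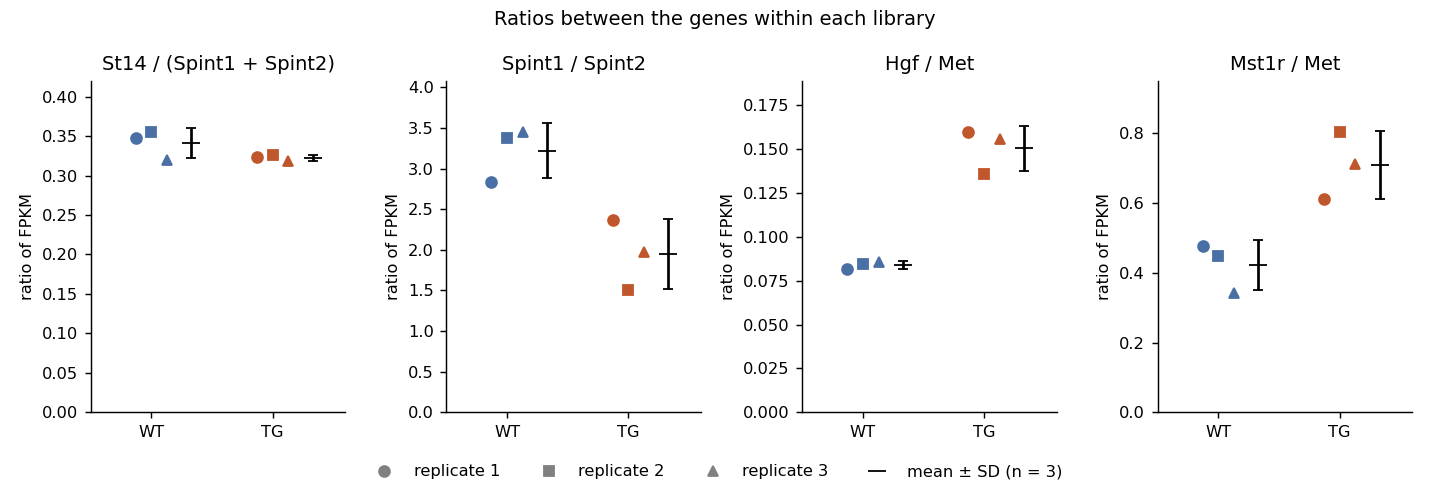
Each panel plots a ratio of FPKM within each of the 6 libraries, with the mean and SD (n = 3) and a y axis from 0. *St14* over both inhibitors overlaps between genotypes on the exon-union scale plotted, *Spint1* over *Spint2* is lower in every TG library, and *Hgf* over *Met* and *Mst1r* over *Met* are higher in every TG library.

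The genes most like each member were found by the root mean square difference of log2 CPM over the 6 libraries, each gene centred on its own mean. This measure includes the genotype difference on which the members were chosen, so the nearest genes share it. *B4galnt1*, for example, had a log2 fold change of 0.82, as *Hgf* did. Likeness is a description only, and shared regulation was not tested. For *Hgf* they were *B4galnt1* (0.0508), *Ms4a6c* (0.0617) and *Itgax* (0.0788), all on the log2 scale. For *Mst1r* they were *Scin* (0.0358), *Ipmk* (0.0660) and *Ccr4* (0.0664). *St14* was most like *Ptger4* (0.0245), *Nudt13* (0.0339) and *Cald1* (0.0339), and *Spint1* like *Nfe2l3* (0.0157), *Braf* (0.0212) and *Dach1* (0.0416). *Met* had *Pter* (0.0138), *Samd8* (0.0190) and *Gtf3c6* (0.0259), and *Spint2* had *Zfp35* (0.0279), *Serp1* (0.0290) and *Tbrg4* (0.0302).

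A wider list of 63 genes of the pathway, drawn up by function, had 60 genes in the table and 55 that were tested. In TG skin, 31 of the 55 were higher and 24 were lower, with a median log2 fold change of 0.07 against -0.01 over all tested genes. By the quasi-likelihood test of edgeR, 1 of the 55 passed an FDR of 0.05, in the direction of TG, against 1.91% of all tested genes. The CPM of the genotypes did not overlap for 23 of the 55, where 33.8% of all tested genes did not overlap. The likelihood-ratio test of edgeR and DESeq2 each called 9 of the 55, against 10.4% and 10.5% of all tested genes, and voom called 1, against 1.65%. Without TG2 the quasi-likelihood test called 7 of the 55, and 817 of all 14950 genes then tested. Leaving out any one of the other libraries gave 0 of the 55, with 12 to 23 at an unadjusted p below 0.05, beside the 2726 to 3841 of all genes given above, and over all genes 142 calls without WT1, 83 without TG1 and 0 without WT2, WT3 or TG3.

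*Tmprss4*, a transmembrane serine protease of the same class as matriptase, was the gene that passed. It rose from 69.3, 61.1 and 65.0 CPM in WT to 109, 143 and 101 CPM in TG libraries, a log2 fold change of 0.85 with a standard error of 0.13 and a quasi-likelihood FDR of 0.0413 in edgeR. It is a protease gene that differed in the direction opposite to *St14*. Its FDR ranged from 3.80e-07 to 0.186 over the 14 alternatives. *Plau*, which encodes urokinase, had 23.1 ± 0.824 CPM in WT and 29.6 ± 2.34 CPM in TG skin (log2 fold change 0.36, FDR 0.0621 in edgeR). Of the 7 tested proteases in this group, 3 were higher and 4 were lower. The lower ones held *Prss8*, prostasin, which acts with matriptase in the epidermis, with 47.9 ± 4.25 and 41.4 ± 2.25 CPM, and *Tmprss11e*, with 52.9 ± 8.14 and 21.1 ± 11.7 CPM. Neither passed the quasi-likelihood test of edgeR (FDR 0.170 and 0.114), and both were named after their values were seen.

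*Mst1*, the MSP gene, had 4.67, 5.76 and 4.57 CPM in WT and 7.56, 9.65 and 8.05 CPM in TG libraries. The groups did not overlap, but its log2 fold change of 0.75 (standard error 0.15) did not pass the quasi-likelihood test of edgeR, at an FDR of 0.0531. The likelihood-ratio form of edgeR (FDR 0.00419) and DESeq2 (adjusted p 0.00962) did call it. Among inhibitors of the plasminogen activators, *Serpinb2* (PAI-2) had 81.2 ± 3.60 and 157.9 ± 44.8 CPM, with a log2 fold change of 0.96 and an FDR of 0.0516 in edgeR.

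The substrates of matriptase and prostasin in epithelia were nearly level, and 0 of the 6 had groups that did not overlap, against 33.8% of all tested genes. *F2rl1*, the protease-activated receptor PAR2, had 32.8 ± 2.07 CPM in WT and 31.3 ± 2.02 CPM in TG skin, and *Scnn1b*, a sodium channel subunit, had 15.7 ± 1.12 and 14.9 ± 0.752 CPM. Their log2 fold changes were both -0.07 (standard error 0.08 and 0.09), with FDRs of 0.618 and 0.649 in edgeR. Among the 10 co-receptors, partners and sheddases of MET, 7 were higher and 3 lower. *Itga6*, the integrin alpha6 chain of basal keratinocytes, had 212 ± 21.8 and 313 ± 49.4 CPM (log2 fold change 0.57, FDR 0.0616 in edgeR). *Adam17*, a sheddase, had 89.6 ± 3.51 and 107.5 ± 8.90 CPM (log2 fold change 0.26, FDR 0.0870 in edgeR).

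The 16 adaptors and transducers of MET were split, with 8 higher and 8 lower and a median log2 fold change of 0.02. *Stat3*, a transcription factor activated by many receptors, had 123 ± 7.07 CPM in WT and 176 ± 24.4 CPM in TG skin (log2 fold change 0.51, FDR 0.0541 in edgeR). *Mapk3*, the ERK1 gene, had 39.6 ± 2.61 and 49.2 ± 1.73 CPM (log2 fold change 0.32, FDR 0.0618 in edgeR). Of the 12 negative regulators, 8 were higher and 4 lower. *Ptprj*, a phosphatase that acts on MET, had 42.0 ± 3.26 and 50.1 ± 2.29 CPM (log2 fold change 0.26, FDR 0.0976 in edgeR), and *Errfi1*, the inhibitor MIG6, had 90.5 ± 11.6 and 73.0 ± 6.42 CPM (log2 fold change -0.31, FDR 0.139 in edgeR). Except where another test is named, all these FDRs of list genes are from the quasi-likelihood form. Of the list genes named here other than *Tmprss4* and *Mst1*, the likelihood-ratio form called *Tmprss11e*, *Serpinb2*, *Itga6* and *Stat3*, and DESeq2 called *Plau*, *Serpinb2*, *Itga6*, *Adam17*, *Stat3* and *Mapk3*.

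**Figure D5:**
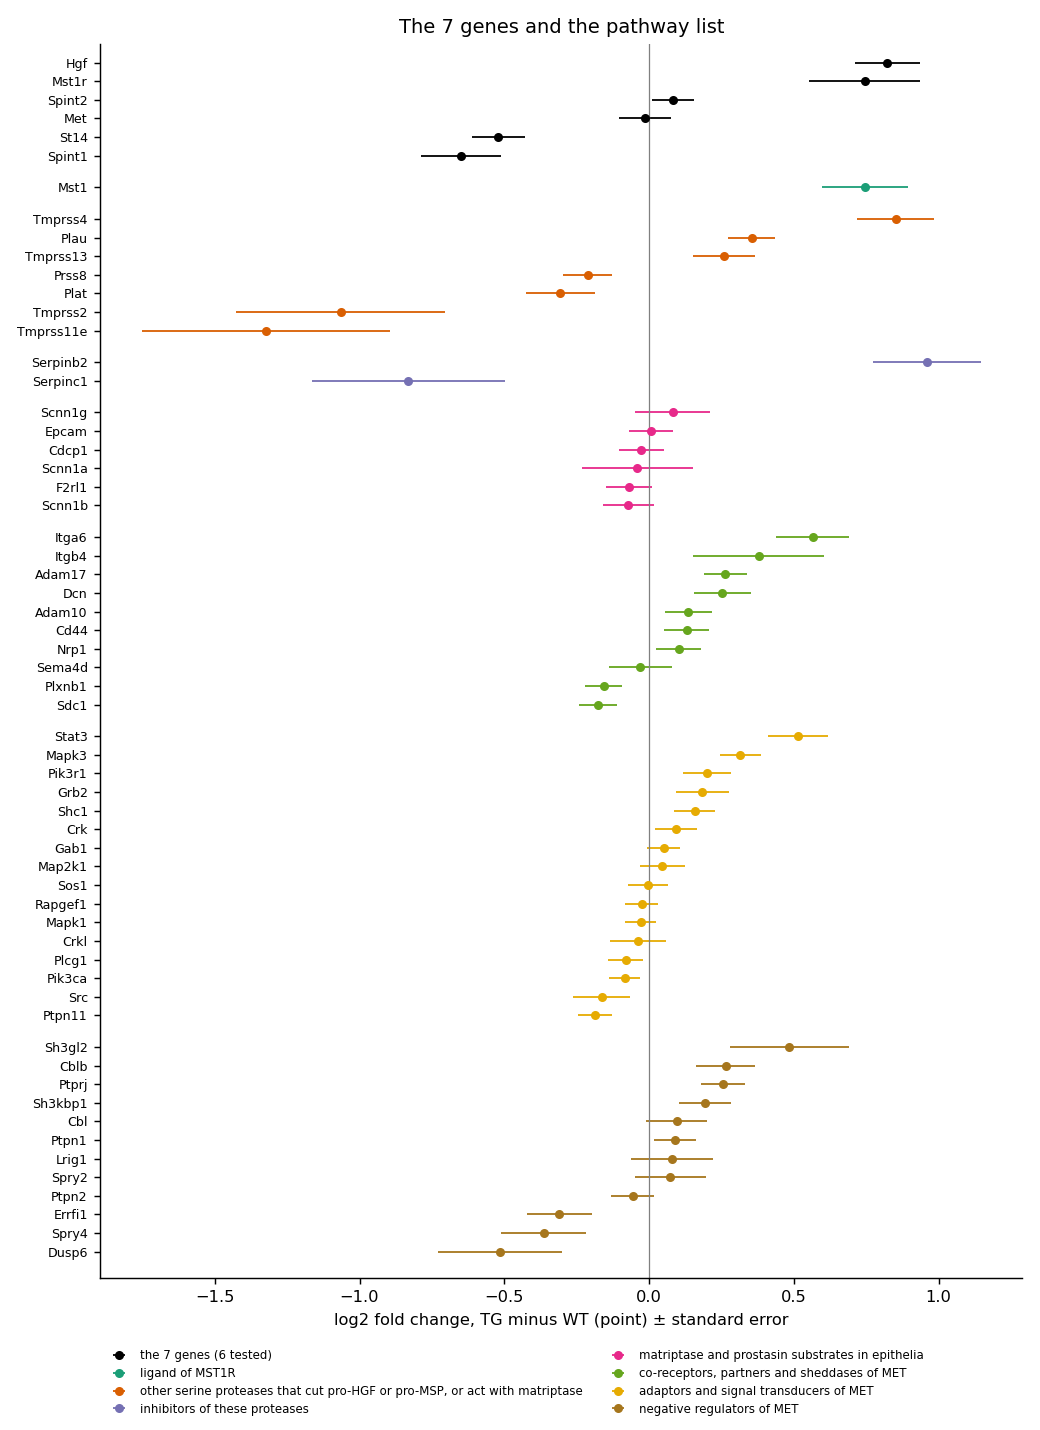
Points give the log2 fold change of TG minus WT for the 6 tested members and the tested genes of the pathway list but 1, coloured by role, and bars give the standard error of the fit. *Tmprss4*, at 0.85, is the gene of the list that passed the quasi-likelihood test, the substrates lie near 0, and the signal transducers lie on both sides of 0.

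Depth was 11225705 to 19505036 counts per library, with WT3 the lowest. *Yap1* had 131 ± 9.47 CPM in WT and 136 ± 7.32 CPM in TG skin, which is 0.06 on the log2 scale (standard error 0.07, quasi-likelihood FDR 0.635 in edgeR), and whether the transgene's reads fall on this gene is not given in the sources used here. Skin markers were present in every library, and several marker sets differed between the genotypes beside the members. Basal keratinocyte markers summed to 4178 to 5060 CPM in WT and 6645 to 8311 CPM in TG libraries, with 7 of 7 higher. Hair shaft and inner root sheath markers summed to 12397 to 15101 CPM in WT and 1386 to 8428 CPM in TG libraries, with 8 of 8 lower. TG2, which was lowest for *St14* and *Spint1* and highest for *Mst1r*, also had the lowest hair sum and the highest suprabasal sum (14952 CPM, against 6940 to 9678 in the other 5 libraries). Melanocyte markers were lower in 5 of 5, with sums of 408 to 478 and 151 to 261 CPM. Dermal papilla sums were 136 to 152 and 62.4 to 110.1 CPM, with 3 of the 5 tested markers lower and 2 higher. Much of this sum was *Lef1*, named after its values were seen, with 89.5 CPM in WT and 46.6 CPM in TG skin on average. Skeletal muscle markers were lower in 5 of 5, but their sums overlapped, at 1096 to 5871 and 987 to 2781 CPM, with WT1 far below WT2 and WT3. Stress keratinocyte markers were higher in 6 of 7, with sums of 1221 to 1624 and 1342 to 2535 CPM that overlapped. Fibroblast markers were higher in 8 of 8, with sums of 9677 to 13023 and 12487 to 16222 CPM that overlapped. Macrophage markers were higher in 8 of 8, with sums of 375 to 455 and 542 to 593 CPM that did not overlap. Mast cell sums were 154 to 173 and 197 to 248 CPM, and endothelial sums were 111 to 125 and 130.1 to 152 CPM. Neutrophil sums were 5.39 to 8.09 and 12.3 to 14.7 CPM, and nearly all of this was 1 gene. That gene, *Cxcr2*, had 6.32 ± 1.25 and 12.99 ± 1.22 CPM, while *Mpo*, *Elane*, *Camp* and *Ngp* each had at most 0.562 CPM in a library and overlapped between genotypes. The part of these cell types in the values of *Hgf*, *Mst1r*, *St14* and *Spint1* was not tested.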

How the data were processed

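RNA from 6 whole-skin biopsies was sequenced and the authors deposited raw read counts for each Ensembl gene. The submitters' processing notes name TopHat2, Bowtie2 and HTSeq. The strand setting and annotation release are not given in the sources used here. Genes were placed by GENCODE M21 (GRCm38), and 558 identifiers absent from it kept their identifier only. Counts were tested in R 4.3.3 with the quasi-likelihood test of edgeR 4.0.16 (TMM factors, 1 CPM or more in 3 or more libraries, genotype as the only term, Benjamini-Hochberg FDR over all genes tested, threshold 0.05). The study used the likelihood-ratio form of edgeR and voom, which were run as alternatives (limma 3.58.1), with DESeq2 1.42.0, other scalings and filters, a replicate block and each library left out. The code was tested on simulated data. CPM used TMM library sizes, and FPKM divided CPM by annotated exon length. Log2 CPM for likeness used a prior count of 2.

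The members and lists were chosen with earlier results of these data known. Named were all 7 members, list genes past the FDR, the 2 lowest p-values of each role, *Yap1*, and the 3 genes most like each tested member, with exceptions stated where they occur. A gene that this rule names in the pathway list is not reported here. Littermates were compared, but no label ties one mouse to another, and each library is 1 mouse. Promoter letters came from RefSeq windows. Counting errors cover sampling of reads only.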

Additional observations from a re-analysis of the deposited data

How the results depend on the processing

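Over 14 alternatives, *Hgf*, *Mst1r* and *Spint2* were higher and *St14* and *Spint1* lower in TG skin in each, and *Met* was higher in 5. Without TG2, *Spint1* moved from -0.65 to -0.49 and *St14* from -0.52 to -0.41 on the log2 scale, each by more than its standard error. The count of calls depended on the setting. Among all tested genes it was 288, with 497 genes without a low-count filter, 1568 by the likelihood-ratio test, 1590 by DESeq2, and 0 to 817 with 1 library left out (142 without WT1, 83 without TG1, 817 without TG2, and 0 without WT2, WT3 or TG3, where 2726 to 3691 genes had an unadjusted p below 0.05). Of the 288, 218 were higher in TG skin, against 833 of 1568, 959 of 1590 and, without TG2, 408 of 817. Among the members the count was 2, with 4 by either of those 2 tests and 0 to 3 with 1 library left out. In the pathway list it was 1, with 4 under upper-quartile scaling (416 over all genes), 5 without a filter, 9 by the likelihood-ratio test, 9 by DESeq2 and 0 to 7 with 1 library left out. The cause was not tested. With the replicate number as a block, edgeR's quasi-likelihood test called 0 genes (2949 at an unadjusted p below 0.05), 0 members (4 unadjusted) and 0 list genes (16 unadjusted). No label says that the numbers pair the mice. Deviations of same-numbered libraries from their genotype mean correlated at -0.33 to -0.05. With so few libraries per genotype, this cannot show whether mice were paired. Depth limited *Hgfac*, with 15 and 30 counts. With the longest transcript as the length, chosen after the data were seen, the mean of *St14* over both inhibitors was 0.592 in WT and 0.549 in TG skin, in place of 0.341 and 0.322, and no longer overlapped.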
